A study of Mus musculus with 8 samples.

Results

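The secondary iPSC lines 16-6 and 32 were both obtained from mesodermal cells of all-iPSC mice, and their transcriptomes were compared with each other. Line 16-6 was derived from hematopoietic progenitors of the bone marrow that had been selected with c-Kit beads, and line 32 from adipocyte progenitors of the inguinal fat. All-iPSC mice develop entirely from an iPSC line that carries doxycycline-inducible Oct4, Sox2, c-Myc and Klf4, so every cell of the young adult donors, and every cell of both lines, carried these transgenes. Doxycycline was withdrawn before the colonies were picked, and each line is 1 clone. The 4 libraries of 16-6 and 32 (2 each) are part of a series of 8, which also holds 2 libraries of the ESC line R1 and 1 library each of the iPSC lines S8 (epidermal) and T2 (stomach lining). Among 22878 genes listed in every library, the 12921 that reached 1 in any of the 4 libraries were tested, in units of FPKM (fragments per kilobase of transcript and per 1000000 mapped fragments). All lines were grown on MEFs, mouse embryonic fibroblasts from ICR embryos that had been treated with mitomycin C to stop division, and the RNA of a library comes from the whole cell pellet. The methods of the study call the 2 libraries of a line biological replicates. Neither they nor the labels say whether these were separate cultures, and the p-values measure the spread between these libraries only.

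Mouse pluripotent stem cells kept in serum and LIF express a network of transcription factors centred on Oct4, Sox2 and Nanog. In the naive state that resembles the inner cell mass, factors such as Esrrb, Klf2, Klf4, Tbx3, Prdm14 and Tfcp2l1 sustain this network, with input from LIF through Stat3. Fibroblasts are recognised by secreted matrix proteins such as collagens, by transcription factors such as Prrx1 and Twist2, and, when activated, by contractile proteins such as smooth muscle actin. Hox genes are ordered in clusters, lie silent under Polycomb in pluripotent cells and are kept active in mesodermal cells according to their position in the body.

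Of the 12921 genes tested, 1415 (11.0%) were called, which means an adjusted p below 0.05 in limma and at least a 2-fold difference in FPKM + 1. The calls were lopsided: 1265 genes (9.79% of those tested) were higher in 16-6 and 150 (1.16%) were higher in 32. The sizes were lopsided too. Among the genes higher in 16-6, 437 differed by at least 2 on the log2 scale and 169 by at least 3, whereas only 10 of those higher in 32 reached either value. The genes higher in 16-6 were mostly faint in 32, with a median FPKM of 1.79 there against 10.67 in 16-6. In genes expressed strongly in both lines the difference was small. Of 6648 genes that had 10 FPKM or more in all 4 libraries, 96.2% differed by less than 2-fold in FPKM + 1, 192 were called higher in 16-6 and 54 higher in 32. The median difference of these genes, 16-6 minus 32, was -0.19, and that of all genes tested was -0.07. Centring each library on its strongly expressed genes moved the latter to 0.05, which raised the calls higher in 16-6 to 1463 and lowered those higher in 32 to 102.

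**Figure D1:**
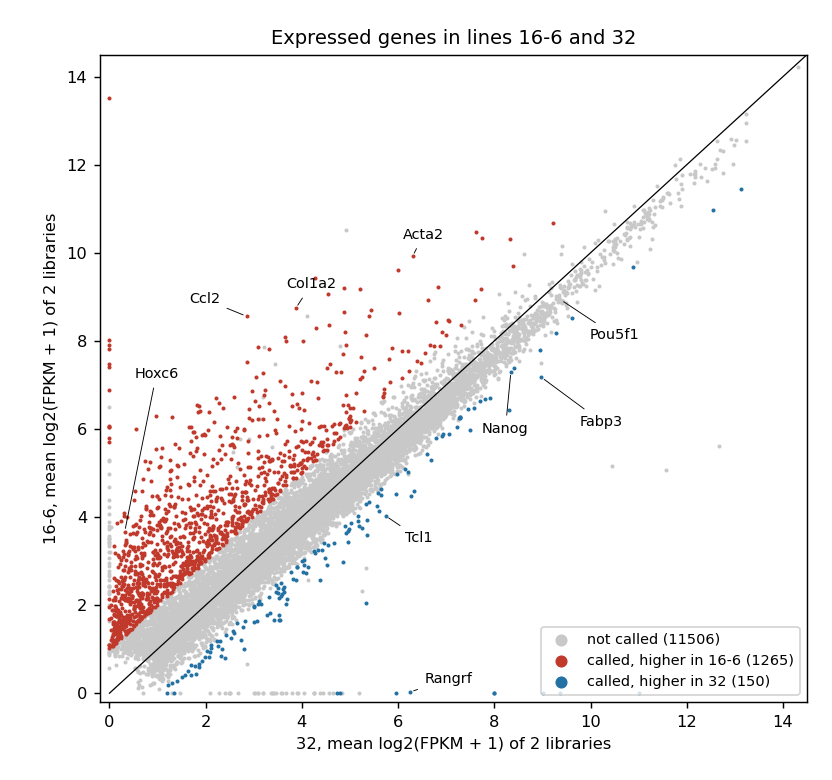
Mean log2(FPKM + 1) of the 2 libraries of 32 (horizontal axis) against that of the 2 libraries of 16-6 (vertical axis) for the 12921 genes tested, 1 point per gene, with the line of equal values. The 1265 genes called higher in 16-6 (red) lie mostly where 32 is low, and the 150 called higher in 32 (blue) lie close to the main body of points.

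The depth was alike in the 4 libraries. The confidence limits of the FPKM imply 16.08 to 16.18 fragments per library in units of 1000000. The summed FPKM were higher in 32, at 1259522 and 1214859 against 991299 and 972287 in 16-6, and the 10 most abundant genes, which include small nucleolar RNAs such as Snord69 and Snord34, held 26.51% and 25.31% of it in 32 against 20.24% and 19.41% in 16-6. Between the libraries of 1 line 118 genes in 16-6 and 123 in 32 were at least 2-fold apart in FPKM + 1. Over genes whose implied fragments were whole to within 0.01, the spread between libraries was 1.08 times sampling noise in 16-6 and 1.29 times in 32, where sampling noise covers counting error only. The libraries of 16-6 were counted as 2 samples, as labelled, and counting them as 1 gave 1435 calls in place of 1415. For any single value, 2 libraries against 2 cannot give an exact permutation p below 0.333.

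Among genes with a locus of at least 300 bases, the largest differences higher in 16-6 were mostly those of secreted and matrix genes. Ccl2, a chemokine that attracts monocytes, had an FPKM of 351 and 403 in 16-6 and 6.08 and 6.33 in 32, a 60.7-fold difference (log2 difference 5.71 ± 0.07 SE, adjusted p = 5.65e-07). Its neighbour Ccl7, a chemokine of the same family, stood at 77.5 and 76.6 in 16-6 and at 1.57 and 0.48 in 32. Tnc, the matrix glycoprotein tenascin C, was at 687 and 682 against 18.0 and 18.9, and Col1a2, a chain of type I collagen, at 418 and 436 against 13.6 and 13.7 (31.3-fold, log2 difference 4.87 ± 0.07 SE, adjusted p = 6.02e-07). In these genes the libraries of a line lay close together, except those of 32 for Ccl7. That the lines did not overlap was a condition for naming these genes. The other matrix genes among the 12 with the largest differences were Col3a1 (36.0-fold) and Postn, which encodes periostin (34.2-fold). The list was completed by Cck, a peptide hormone (51.4-fold), Serpinf1, an inhibitor of vessel growth (30.7-fold), Csf1, the growth factor of macrophages (29.6-fold), and the mesenchymal transcription factors Twist2 (46.3-fold) and Prrx1 (31.8-fold).

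Mmp3, a secreted protease that degrades matrix, was the second of the 12 by size. Its FPKM was 63.2 and 62.7 in 16-6 and 0.71 and 0.25 in 32 (log2 difference 5.45 ± 0.15 SE, adjusted p = 4.77e-06), and the libraries of R1 stood above both lines at 202 and 230. It is the only one of the 10 genes of this list with a promoter in the RefSeq table that holds the letters TGANTCA, the AP-1 motif, on either strand in the 250 bases before the start. The motif was found in 6.75% of all 32851 promoters of that table. The stretch is shown because it ends at the base before the start of Mmp3 in the files, with the motif in capitals, on the + strand of mm9 at chr9:7445572-7445821:
Mmp3: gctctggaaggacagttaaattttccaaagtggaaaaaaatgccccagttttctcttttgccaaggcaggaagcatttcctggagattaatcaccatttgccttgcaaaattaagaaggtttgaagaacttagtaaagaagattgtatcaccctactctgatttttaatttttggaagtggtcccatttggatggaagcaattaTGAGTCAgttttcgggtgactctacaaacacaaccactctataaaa

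The gene lists show how far this pattern reached. Of 32 fibroblast matrix genes 31 were tested, and 30 were higher in 16-6 and 0 in 32, with a median log2 difference of 4.02, against -0.07 over all genes tested. Fbln1 was the exception, at 36.8 and 34.1 in 16-6 and 23.2 and 24.3 in 32. Bgn, the proteoglycan biglycan, was at 539 and 527 against 21.2 and 23.6, and Fn1, fibronectin, at 578 and 584 against 207 and 214, so that the list spanned log2 differences from 0.56 to 5.14. Of 11 tested genes that define fibroblasts, 10 were higher in 16-6 and 0 in 32, among them the surface proteins Thy1 (226 and 219 against 8.99 and 8.93) and Cd44 (117 and 113 against 6.94 and 6.66) and the receptor Pdgfra (8.82 and 9.22 against 0.34 and 0.41). Eng, an accessory receptor of TGF-beta, was not called (10.8 and 10.9 against 12.3 and 11.9).

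**Figure D2:**
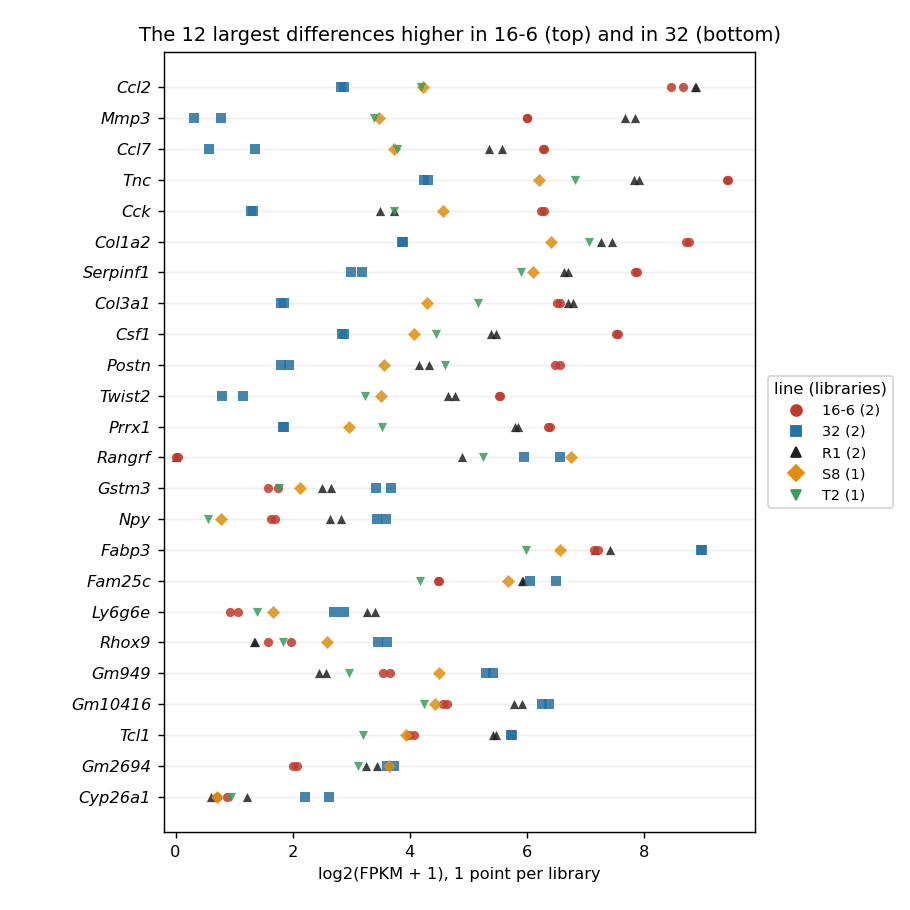
Log2(FPKM + 1) (horizontal axis) in each of the 8 libraries, 1 point per library with colour and shape for the line, of the 12 genes with the largest difference higher in 16-6 (upper rows) and the 12 higher in 32 (lower rows). In the upper rows the libraries of 32 are the lowest of all lines, and R1 lies near or above 16-6 for Ccl2, Mmp3 and Col3a1; in the lower rows the gap between 16-6 and 32 is much smaller, except for Rangrf.

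The fibroblast markers also differed among the other lines. The summed FPKM of the 16 defining genes was 921 and 952 in 16-6, 64.3 and 66.4 in 32, 375 and 467 in R1, 206 in S8 and 202 in T2. That of the matrix list was 6649 and 6631 in 16-6, 806 and 819 in 32, 2951 and 3059 in R1, 1315 in S8 and 1977 in T2. Line 32 was the lowest of the 5 lines and 16-6 the highest, by 14.3-fold for the defining genes and 8.18-fold for the matrix genes. None of the defining genes was at 0 in both libraries of 32. In bulk RNA more cells of a type and more RNA per cell cannot be told apart, and the part that fibroblasts of the feeder layer had in the differences was not tested.

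The fibroblast genes did not keep 1 ratio from line to line. Dcn, the proteoglycan decorin, was at 32.9 and 33.3 in 16-6 and 0.60 and 0.89 in 32, but at 217 and 204 in R1. Its level relative to Col1a2 was 0.0788 and 0.0764 in 16-6, 0.0445 and 0.0651 in 32 and 1.42 and 1.18 in R1. Thy1 stood in a narrower range relative to Col1a2, from 0.459 in a library of R1 to 0.775 in S8. The contractile genes went the other way from Dcn: Acta2 relative to Col1a2 was 2.31 and 2.22 in 16-6, 5.71 in both libraries of 32, and 0.45 and 0.38 in R1.

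Contractile genes formed the third group that was higher in 16-6. Of 16 members, all tested, 12 were called higher in 16-6 and 0 in 32, with a median log2 difference of 2.35. Acta2, smooth muscle actin, was at 966 and 968 in 16-6 and 77.6 and 78.0 in 32 (12.4-fold, log2 difference 3.62 ± 0.04 SE, adjusted p = 4.44e-07). Actg2, the enteric smooth muscle actin, was at 104 and 107 against 4.88 and 5.16, and Tagln, an actin-binding protein, at 487 and 485 against 102 and 92.7. For Acta2, R1 stood slightly below 32, at 68.7 and 65.5. Actg2 in R1 was at 6.65 and 7.74, a little above 32, and the summed FPKM of the list was 5068 and 5021 in 16-6, 1230 and 1274 in 32 and 1441 and 1491 in R1. Vim, the intermediate filament vimentin of mesenchymal cells, was at 1301 and 1282 in 16-6, 213 and 214 in 32 and 673 and 704 in R1.

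Myl9, the regulatory light chain of smooth muscle myosin, was at 157 and 154 in 16-6 and 27.5 and 26.9 in 32 (log2 difference 2.47 ± 0.06 SE). It and Cnn2, which was not called, were the contractile genes whose promoter in the RefSeq table held a CArG box, the site of serum response factor, within 250 bases before the start (2 of 14 promoters, against 1.47% of all promoters in the table). The Myl9 stretch, which ends at the base before the start of the gene, is shown with the box in capitals, on the + strand of mm9 at chr2:156600950-156601199, and was chosen for display because it holds the box:
Myl9: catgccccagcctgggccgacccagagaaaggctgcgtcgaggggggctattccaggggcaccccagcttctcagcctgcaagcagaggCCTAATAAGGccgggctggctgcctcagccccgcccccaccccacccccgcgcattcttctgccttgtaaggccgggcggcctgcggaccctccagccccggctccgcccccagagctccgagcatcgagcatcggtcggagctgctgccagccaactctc

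All tested Hox genes had a higher level in 16-6, though not all were called. Of 24 tested members of the fixed list of 36, 20 were called higher in 16-6 and 0 in 32, with a median log2 difference of 1.41. Hoxc6 was at 11.6 and 11.7 in 16-6 and 0.22 and 0.27 in 32 (log2 difference 3.35 ± 0.10 SE, adjusted p = 5.95e-06), and Hoxb9 at 14.1 and 14.1 against 1.24 and 1.17. Hoxb6 (4.81 and 3.24 against 0.05 and 0.05) and Hoxc10 (3.90 and 4.31 against 0.12 and 0.12) followed. These levels were low beside those of the matrix genes, and in 32 most members lay under an FPKM of 1. Counting all 39 Hox genes in the files, the clusters differed in extent: 8 of 8 tested genes were called in cluster B, 6 of 8 in A, 6 of 8 in C and 1 of 2 in D. The summed FPKM of cluster B was 34.7 and 31.8 in 16-6, 2.62 and 2.78 in 32 and 7.20 and 7.37 in R1, and that of cluster C was 28.3 and 28.8, 2.57 and 1.94, and 6.22 and 5.83 in the same order. Cluster D was the closest between the lines, at 6.54 and 5.89 in 16-6 and 2.29 and 1.42 in 32. In 16-6, R1 and 32 these sums had the order of the fibroblast sums, although not in proportion: Hoxc6 relative to Col1a2 ranged from 0.012 in a library of R1 to 0.0278 in one of 16-6.

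**Figure D3:**
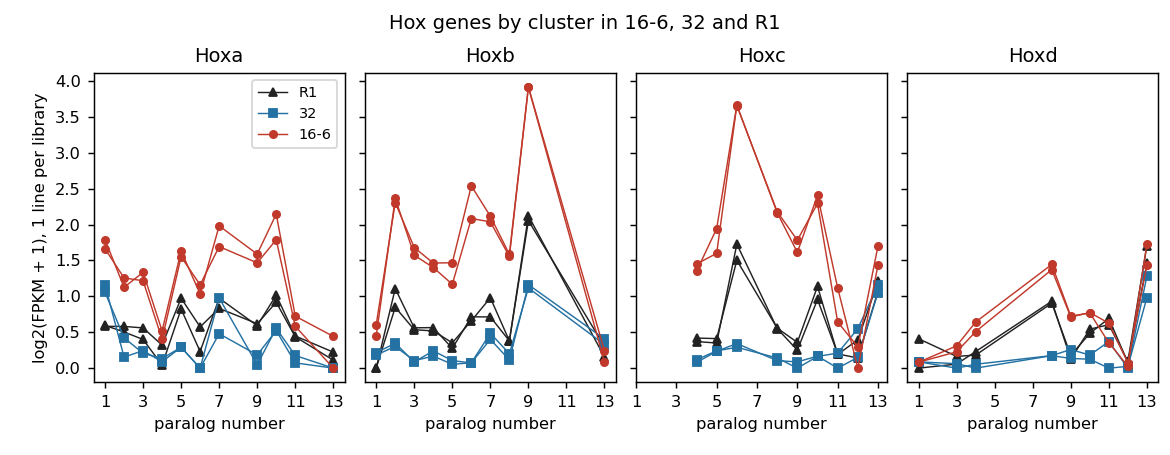
Log2(FPKM + 1) (vertical axis) of each Hox gene by paralog number (horizontal axis) in clusters A to D, 1 line of points per library of 16-6 (red), 32 (blue) and R1 (black). In clusters A, B and C the libraries of 16-6 lie above the others at most paralogs, with peaks at Hoxb9 and Hoxc6, and those of 32 lie lowest, while in cluster D the lines are closer.

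The hematopoietic and adipocyte lists bear on the tissues from which the lines were derived. Of 29 hematopoietic entries (28 genes, with Hba-a1 listed at 2 loci) only 9 were tested, of which 4 were higher in 16-6 and 1 in 32. Over all genes tested 9.79% were called higher in 16-6 and 1.16% higher in 32. The median log2 difference of the list was 0.32, or -0.02 under quantile normalization. Its summed FPKM was 51.5 and 50.1 in 16-6 and 46.1 and 48.8 in 32. Runx1, a regulator of blood stem cells, was at 8.55 and 8.51 in 16-6, 0.81 and 1.06 in 32 and 5.36 and 5.19 in R1. Cd34, a marker of progenitors and of vessels, was at 7.86 and 7.40 in 16-6, 1.20 and 1.41 in 32 and 26.6 and 27.3 in R1. The homeobox genes Meis1 (3.88 and 4.05 against 0.87 and 1.04) and Hoxa9 (2.01 and 1.76 against 0.14 and 0.03) were the others higher in 16-6. Which cells these transcripts came from was not tested. Kit, the stem cell factor receptor by which the donor cells of 16-6 had been selected, was lower in 16-6 (12.9 and 14.1) than in 32 (29.9 and 33.2). The genes not tested, below an FPKM of 1 in all 4 libraries, included Ptprc, Gata1, Tal1 and Mpo, which mark blood cells. In 32, 8 entries of the list were at 0 in both libraries. Among these, Hbb-b1, Hbb-bh1, Elane and a locus of Hba-a1 were at 0 in both libraries of 16-6 too.

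Of 24 adipocyte progenitor genes 12 were tested, and 5 were higher in 16-6, the line from the bone marrow, and 0 in 32, the line from fat. The shares over all genes tested were 9.79% and 1.16%. Ly6a, the surface antigen Sca-1, was at 121 and 127 in 16-6 and 10.9 and 12.3 in 32, and Pdgfra, Cebpb, Dlk1 and Ebf1 were the other members called. The transcription factor Cebpb was at 13.2 and 13.7 against 2.51 and 2.43. Zfp423, which commits cells to the fat lineage, was not called (11.2 and 10.8 against 14.7 and 14.9), and Pparg, Fabp4, Adipoq and Plin1, which mark fat cells, were under an FPKM of 1 in all 4 libraries. Pdgfra, Ly6a and Dlk1 are also expressed in fibroblasts, and the part of fibroblasts in these calls was not tested. In R1 Ly6a was at 79.2 and 92.5, below its level in 16-6. Pdgfra in R1 was at 9.18 and 9.92, about its level in 16-6, and Dlk1 at 14.6 and 14.9, above it.

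Of the 8 tissue genes that the study itself examined, 4 were tested and 2 were higher in 16-6, namely Tnc and Hoxa9. The study chose them to represent the tissues of origin and measured them in these lines, so their count is not independent evidence. Slc4a1, the anion exchanger of red cells and the gene chosen for bone marrow, was at 0.03 and 0.04 in 16-6 and 0.47 and 0.33 in 32, and the adipose genes Igf1 (0.44 and 0.45 against 0.66 and 0.69) and Ppargc1a (0.04 and 0.00 against 0.00 and 0.00) were likewise under 1 in the 4 libraries. Pgc, a stomach pepsinogen, was at 1.39 and 1.26 in 16-6 and 3.76 and 3.34 in 32, and was not called. Ghrl, the gene of the hormone ghrelin, was at 0.19 and 1.39 against 1.08 and 0.41, with the libraries of the lines overlapping. Krt5, an epidermal keratin, was at 0.03 and 0.03 in 16-6 and listed at 0 in both libraries of 32.

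Genes of the TGF-beta family and its binding proteins were the largest signalling group. Of 27 genes of the Nodal, BMP and TGF-beta list, all tested, 15 were higher in 16-6 and 0 in 32, with a median log2 difference of 1.15. Among the ligands, Inhba, a subunit of activin, was at 148 and 142 in 16-6 and 8.15 and 6.47 in 32, and Tgfb3 at 12.1 and 12.5 against 0.70 and 0.58. Ltbp1 and Ltbp2, which hold latent TGF-beta in the matrix, were at 60.9 and 61.8 against 4.88 and 5.25 and at 40.8 and 39.4 against 1.12 and 1.11. The receptor Tgfbr2 was at 13.2 and 13.1 against 1.08 and 1.08. The targets Id1 (73.2 and 69.1 against 18.2 and 12.5) and Id3 (154 and 164 against 41.9 and 34.6) were called as well. The ligand Nodal was at 29.4 and 29.6 against 21.7 and 21.3, and its co-receptor Tdgf1 at 421 and 430 against 556 and 550, and neither was called. Lefty1, an inhibitor of Nodal, was higher in 16-6 (106 and 118 against 47.8 and 55.6, a call lost without the first library of 32, at 0.99), whereas its neighbour Lefty2 was at 37.4 and 38.8 against 67.3 and 71.1 and was not called.

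Against this, naive pluripotency genes were lower in 16-6. All 20 members were tested, 9 were called higher in 32 and 0 in 16-6, and the median log2 difference was -0.94. Tcl1, a coactivator of Akt, had the largest difference of the list, at 14.8 and 15.8 in 16-6 and 52.1 and 52.9 in 32 (log2 difference -1.71 ± 0.05 SE, adjusted p = 6.17e-06). The transcription factors Tbx3 (17.6 and 18.3 against 46.3 and 46.5) and Prdm14 (3.58 and 3.96 against 10.9 and 11.0) followed, and Tfcp2l1, listed under its older symbol Tcfcp2l1, was at 42.0 and 42.5 against 95.8 and 96.4. Dppa3, Manba, Nr0b1, Nanog and Esrrb were the other members called. Several genes missed the 2-fold limit only narrowly, such as Klf5 (100 and 92.1 against 174 and 207) and Zfp42 (141 and 144 against 258 and 277). Stat3 (44.6 and 45.8 against 39.4 and 42.1) and Zfp296 (51.3 and 49.5 against 31.5 and 31.0) had positive differences and were not called. With each library centred on its strongly expressed genes, 6 of the naive genes were called, and Nanog (-0.93), Nr0b1 (-0.95) and Esrrb (-0.89) no longer were.

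**Figure D4:**
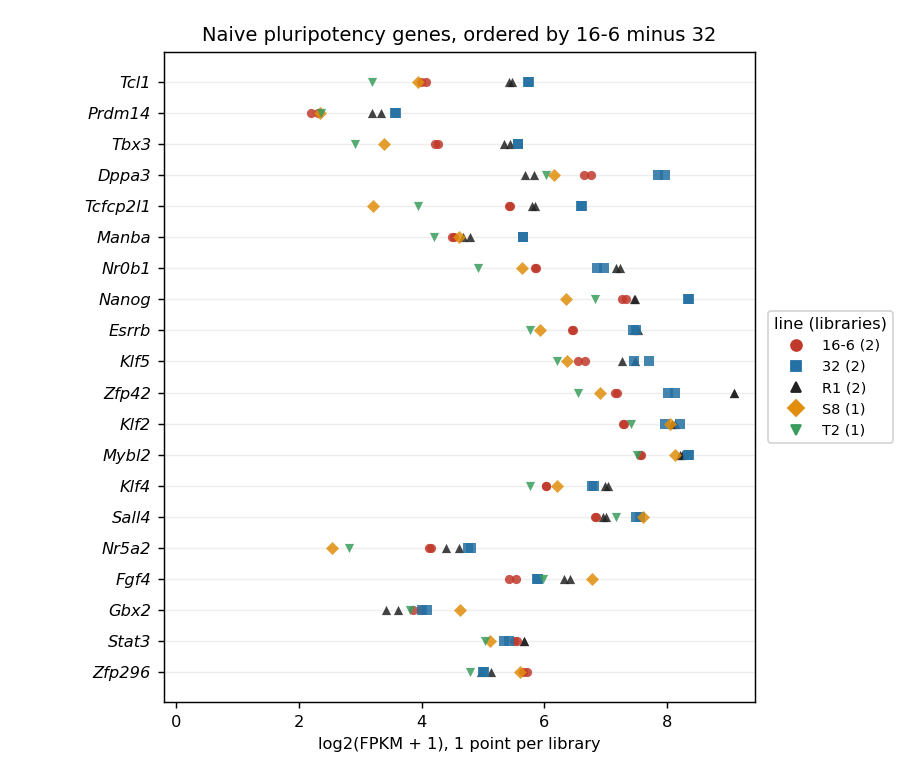
Log2(FPKM + 1) (horizontal axis) of the 20 naive pluripotency genes in each of the 8 libraries, 1 point per library with colour and shape for the line, ordered from the gene furthest below 32 in 16-6 (top) to Zfp296 (bottom). In the upper rows the libraries of 16-6 lie to the left of those of 32, and S8 and T2 lie further left for Tbx3, Tcfcp2l1 and Nr5a2.

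Across lines the naive genes did not follow a single order. For Esrrb the libraries of 32 (172 and 178) stood at the level of R1, whose mean was 179, and 16-6 (86.4 and 87.1) lay between them and S8 (60.2) and T2 (53.4). For Dppa3, a maternal factor that protects imprints, 32 (249 and 230) was far above R1 (50.4 and 55.7), and 16-6 (98.7 and 107) was above R1 too. For Zfp42, also called Rex1, R1 with a mean of 542 was above both lines. The summed FPKM of the list was 1430 and 1436 in 16-6, 2583 and 2686 in 32, 2463 and 2444 in R1, 1547 in S8 and 1161 in T2, so that 16-6 lay nearest to S8. The fibroblast sums gave another order, with 16-6 highest, R1 next and 32 lowest.

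The core pluripotency genes differed less. Of 6 members only Nanog was called, at 153 and 160 in 16-6 and 321 and 327 in 32 (2.07-fold higher in 32, log2 difference -1.05 ± 0.04 SE, adjusted p = 1.79e-05), and its call was also lost under quantile normalization (-0.86). Pou5f1, which encodes Oct4, was at 485 and 492 against 661 and 668, Sox2 at 157 and 162 against 272 and 280, and Klf4 at 64.1 and 64.3 against 108 and 111. None of these 3 reached the 2-fold limit, although their adjusted p lay under 0.05. Lin28a (232 and 221 against 299 and 285) and Myc (31.1 and 30.2 against 27.9 and 27.5) differed least. The reads of the inducible transgenes for Oct4, Sox2, Klf4 and c-Myc cannot be told apart from those of the endogenous genes in these values.

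The 250 bases before the RefSeq start of Nanog hold TGCATNACA, part of the joint Oct4 and Sox2 site, which is found in 0.718% of all promoters of the table (both strands searched). Among the 18 promoters of 15 naive genes in the table, 2 hold it, both of Nanog. The stretch is shown with the motif in capitals, on the + strand of mm9 at chr6:122657257-122657506, and ends 79 bases before the start of Nanog in the files:
Nanog: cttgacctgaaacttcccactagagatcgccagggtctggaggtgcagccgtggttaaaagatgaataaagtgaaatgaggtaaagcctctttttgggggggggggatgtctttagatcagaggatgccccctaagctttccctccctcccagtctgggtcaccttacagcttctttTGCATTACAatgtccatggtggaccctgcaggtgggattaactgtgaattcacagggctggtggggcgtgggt

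Other early embryonic groups held calls in both directions. Their counts stand beside 9.79% called higher in 16-6 and 1.16% higher in 32 over all genes tested. Of 6 tested Dppa family genes, 3 were higher in 32 and 0 in 16-6, including Dppa5a (793 and 831 in 16-6, 2362 and 1508 in 32) and the gene listed as 2410004A20Rik, now Khdc3 (4.76 and 5.35 against 13.1 and 13.1). Without the first library of 32 the difference of Dppa5a was -0.89 and the call was lost, as it was under quantile normalization (-0.94). Of 20 formative and primed epiblast genes, 2 were higher in 16-6, namely Cdh2, N-cadherin (16.2 and 16.8 against 6.18 and 6.59), and Lefty1, a share close to the 9.79% of all tested genes. Otx2 (20.7 and 20.1 against 34.5 and 37.1), which rises as naive cells move towards the epiblast, was not called. Among 12 tested primitive endoderm genes 6 were higher in 16-6 and 2 in 32. Those higher in 16-6 were Thbd, Col4a2, Col4a1, Dab2, Fst and Lamb1. Fibroblasts or vessel cells also make these, and which cells they came from was not tested. Of the endoderm factors, Sox17, Sox7 and Foxa2 were under an FPKM of 1 in all 4 libraries. Gata6 (1.45 and 1.22 against 0.46 and 0.34) and Gata4 (0.52 and 0.72 against 1.03 and 0.91) were tested and not called. Lama1, a laminin chain (5.61 and 5.64 against 16.3 and 15.8), and Apoe, a lipid carrier (360 and 373 against 821 and 747), were higher in 32, but the call of Apoe was lost under median centring (-0.98) and quantile normalization (-0.80). Of 9 tested trophectoderm genes only Tead4 was called, higher in 32 (2.95 and 2.96 against 7.21 and 6.85), and that call was lost under median centring (-0.90) and without the first library of 32 (-0.99).

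Imprinted genes that were called were all higher in 16-6, the direction of 1265 of the 1415 calls over all genes. In the Dlk1-Dio3 region on chromosome 12, whose maternal transcripts mark fully pluripotent mouse iPSCs, Meg3 was at 214 and 218 in 16-6 and 72.7 and 73.9 in 32 (log2 difference 1.55 ± 0.04 SE, adjusted p = 4.44e-06), and Rian at 274 and 287 against 121 and 132. Mirg, the third maternal transcript, was at 27.7 and 22.7 against 15.3 and 19.8 and was not called. Of the paternal genes, Dlk1 was called (5.03 and 5.47 against 0.61 and 0.63), Rtl1 was not (1.39 and 1.53 against 0.40 and 0.56), and Dio3 was at 1.45 and 1.65 against 3.63 and 3.72 without a call. Meg3 and Rian were thus expressed in all 4 libraries, and R1 lay between the lines, with Meg3 at 152 and 159. Of 41 other imprinted genes tested, 9 were higher in 16-6 and 0 in 32, and the median log2 difference was 0.06. Over all genes tested 9.79% were called higher in 16-6 and 1.16% higher in 32. H19 (180 and 176 against 22.1 and 23.6) and Igf2 (96.0 and 91.1 against 14.3 and 13.4), which share a control region and are abundant in embryonic mesenchyme, were the largest beside Dcn, and Grb10 followed (114 and 108 against 32.1 and 35.5). H13, Ndn, Airn, Sgce and Peg13 were the others, while Peg3 (52.1 and 52.2 against 49.8 and 51.1) and Mest (76.0 and 73.5 against 68.4 and 76.0) hardly differed in level.

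Of the genes of the sex chromosomes, Ddx3y was at 8.91 and 9.44 in 16-6 and 1.04 and 1.88 in 32, and Eif2s3y at a mean of 25.7 ± 3.74 (SD, n = 2) against 8.29 ± 0.05, both called. Xist, the RNA that silences an X chromosome, was also higher in 16-6 (22.1 and 23.2 against 8.04 and 8.66). Uty was at 6.23 and 5.85 against 3.09 and 3.44 and Tsix, the antisense partner of Xist, at 1.04 and 1.29 against 1.40 and 1.25, and neither was called. The 2 RNAs overlap on opposite strands, and whether reads were assigned by strand is not given in the sources used here. Kdm5d was under 1 in all 4 libraries. Y-linked transcripts and Xist were both present in all 4 libraries. In the other lines, Eif2s3y was at 94.5 and 88.6 in R1, 46.9 in S8 and 32.0 in T2, above 16-6. Xist was at 27.3 and 21.6 in R1, and at 5.44 in S8 and 5.25 in T2, below 32. S8 and T2 have 1 library each, and the cause of these differences was not tested.

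The genes higher in 32 were fewer and of several kinds. Fabp3, a fatty acid carrier of muscle, was the most abundant of the 12 with the largest differences, at 500 and 505 in 32 and 147 and 140 in 16-6 (3.51-fold, log2 difference -1.80 ± 0.09 SE, adjusted p = 3.97e-05), against 170 and 142 in R1. Gstm3, a glutathione transferase (4.97-fold higher in 32), Npy, the neuropeptide Y (4.83-fold), Fam25c (3.61-fold), Ly6g6e (5.89-fold) and Cyp26a1, which degrades retinoic acid (6.01-fold), were also among the 12. The X-linked homeobox gene Rhox9 was at a mean of 10.6 ± 0.82 (SD, n = 2) in 32 and 2.44 ± 0.65 in 16-6, and its relative Rhox6 at 10.1 and 10.8 against 3.40 and 3.52. Together with Tuba3a, a tubulin of the testis, they made up the 3 of 21 tested germline genes that were called. The other named genes were Tcl1, Gm949 (3.60-fold), Gm10416 (3.40-fold) and Gm2694 (3.80-fold). R1 did not side with 1 line here: it was near 32 for Fam25c and Gm10416 and below 16-6 for Gm949 and Rhox9.

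Rangrf, a cofactor of the GTPase Ran, had the largest fitted difference of the genes higher in 32 with a locus of at least 300 bases (log2 difference -6.23 ± 1.47 SE, adjusted p = 0.013). Its FPKM was 60.4 and 93.5 in 32 and 0.03 and 0.01 in 16-6, and 0.01 and 28.8 in the libraries of R1, which were thus themselves far apart. In S8 it was at 107 and in T2 at 37.1. When any 1 library of 16-6 or 32 was left out, its adjusted p lay between 0.054 and 0.069 and it was no longer called.

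Differences of short genes rested on single fragments. The largest among genes with a locus under 300 bases were Snord70, Mir369 and Mir302b, higher in 16-6, and Snord65, Mir142 and Snord92, higher in 32. Snord70 had an FPKM of 11707 and 11790 in 16-6 and was listed at 0 in 32, from 2 implied fragments in each library of 16-6, and the other 5 genes had between 1 and 3 implied fragments in each library of the higher line. These values are therefore known with little precision, and in limma Mir369 was no longer called when any 1 library of 16-6 or 32 was left out (adjusted p 0.0713 to 0.0868). They are few among the calls, with 12 of the 1265 genes higher in 16-6 and 15 of the 150 higher in 32.

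The other signalling and stress lists held few calls, several of them at shares near those of all tested genes (9.79% higher in 16-6 and 1.16% higher in 32). In the LIF and STAT3 list, Lif itself (10.1 and 11.0 against 2.19 and 2.49), the kinases Jak1 (44.7 and 44.5 against 20.3 and 21.7) and Jak2 (11.3 and 12.7 against 3.86 and 3.65), and Ier3 were higher in 16-6, and the target Tcfcp2l1 was higher in 32. Socs3, the feedback inhibitor induced by Stat3, was at 24.0 and 23.5 against 49.8 and 43.6 and was not called. In the FGF4-ERK list 2 of 21 tested genes were called, Fosl1 (4.91 and 6.28 against 0.45 and 0.78) and Fgfr1 (50.6 and 46.9 against 21.5 and 22.9), both higher in 16-6, which is close to the share of all tested genes. In the Wnt list Nkd2 was higher in 16-6 and Notum, which removes a lipid from Wnt proteins, in 32 (5.90 and 5.54 against 14.8 and 15.5), of 22 tested. Of 30 glycolysis and hypoxia genes, Vegfa (62.7 and 62.1 against 9.96 and 9.90), the prolyl hydroxylases of collagen P4ha1 and P4ha2, and Adm were higher in 16-6, and Aldoc in 32. The cell cycle genes Ccnd2, Cdkn2b and Cdkn1a were higher in 16-6, the last at 192 and 191 against 53.7 and 57.1, of 21 genes in the p53 list. In the list of MHC class I and interferon genes B2m (381 and 408 against 63.5 and 64.9), H2-D1 and Ifi27l1 were higher in 16-6 and Ifitm1 in 32 (284 and 292 against 662 and 589), of 19 tested. In the serine and amino acid stress list Cebpb, Nupr1 and Vldlr were higher in 16-6, of 19 tested, and in the replication-dependent histone list Hist1h2bc and Hist1h1c were higher in 16-6, of 18 tested. Some of these calls were lost under other settings: Ifitm1 under median centring (-0.99) and quantile normalization (-0.85), Aldoc under median centring (-0.88) and without the second library of 16-6 (-0.98) or of 32 (-0.92), Nkd2 under quantile normalization (0.69) and without the second library of 16-6 (0.97) or the first of 32 (0.94), and Vldlr under quantile normalization (0.86).

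Several lists had 0 calls in limma at the 2-fold limit: 18 epithelial genes, 18 genes of cholesterol synthesis, 11 DNA methylation enzymes, 10 genes of telomerase and shelterin, 9 genes each of primitive streak and neuroectoderm, and 2 tested genes of the 2-cell-like state. Their median log2 differences lay between -0.42 (telomerase and shelterin) and 0.25 (DNA methylation enzymes). At an unadjusted p under 0.05, with no fold limit, the count was 10 of 18 epithelial genes, 17 of 18 genes of cholesterol synthesis, 9 of 11 DNA methylation enzymes, 8 of 10 genes of telomerase and shelterin, 7 of 9 genes of primitive streak, 6 of 9 genes of neuroectoderm and 1 of 2 genes of the 2-cell-like state. Over all genes tested this count was 8748 of 12921, so such p-values were common and do not set these lists apart. The limma adjusted p was also below 0.05 for 9 of the 11 DNA methylation enzymes, such as Tet2, which oxidises methylcytosine (16.4 and 17.1 in 16-6 against 31.4 and 32.9 in 32). Among all 12921 genes tested it was below 0.05 for 8251.

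**Figure D5:**
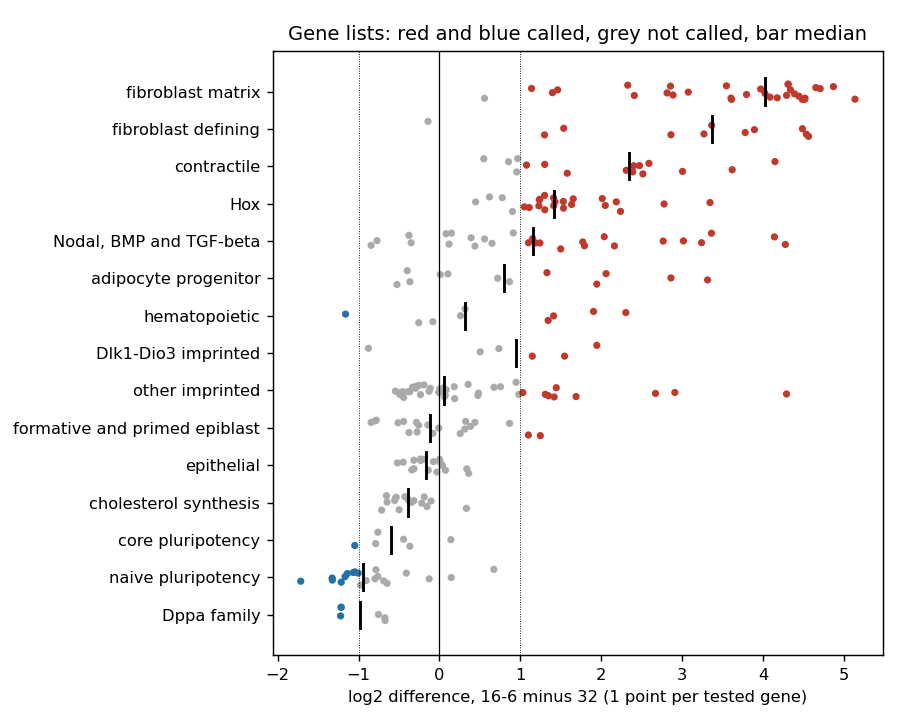
Log2 difference, 16-6 minus 32 (horizontal axis), of every tested gene in 15 of the 33 gene lists, 1 point per gene, red where called higher in 16-6, blue where called higher in 32 and grey where not called, with the median of each list as a black bar and the 2-fold limits dotted. The fibroblast lists have their medians at 4.02 and 3.37, the contractile list at 2.35 and Hox at 1.41, and the naive and Dppa lists lie to the left at -0.94 and -0.98.

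The called genes were spread over the genome with local groups. The share of tested genes called higher in 16-6 ranged from 6.72% on chromosome 17 to 13.2% on chromosome 6 among the autosomes, and that called higher in 32 from 0.299% on chromosome 18 to 2.22% on chromosome 14. Among strongly expressed genes the median log2 difference of an autosome lay between -0.23 and -0.11 (chromosome 12), and that of chromosome X was -0.19. Between the libraries of 1 line the medians of these chromosomes lay between -0.04 and 0.01. Windows of 1000000 bases with the most genes higher in 16-6 were those of the Hox clusters B (11 of 25 tested, with the neighbouring genes), C (7 of 30) and A (7 of 12), that of Dlk1-Dio3 (7 of 25), a window of chromosome 4 that holds Tpm2 and Tln1 (7 of 22) and a window of chromosome 19 that holds Fosl1 and Ltbp3 (7 of 48). The count for Dlk1-Dio3 includes the microRNA genes Mir341, Mir541, Mir369 and Mir3072, and the call of Mir369 rested on few fragments. Over all genes tested 9.79% were called higher in 16-6. On chromosome 11 all 5 tested genes of a chemokine cluster were higher in 16-6, namely Ccl2, Ccl7, Ccl11 (13.3 and 13.7 against 0.15 and 0.08), Ccl12 and Ccl8. On chromosome 5 a cluster of neutrophil chemokines and EGF-like factors held 6 called genes of 8 tested, including Cxcl1 (23.5 and 23.6 against 0.85 and 2.06) and Ereg (27.7 and 26.7 against 0.92 and 0.70). On chromosome 14 the proteases Mcpt8 (35.4 and 38.5 against 0.79 and 0.81), Gzme (25.0 and 21.0 against 0.46 and 0.45) and Gzmd were called, and on chromosome 3 the late cornified envelope genes Lce1f (21.0 and 21.3 against 0.90 and 1.08) and Lce1g (25.3 and 31.4 against 0.42 and 0.85). Of these, Lce1g was not high in the other lines, at 0.77 and 1.13 in R1, 0.67 in S8 and 0.11 in T2. The windows and the genes named from them were chosen after their values were seen.

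The lines that the contrast did not use took sides unequally. Among the 1265 genes higher in 16-6, R1 was nearer to 16-6 for 868 (68.6%), S8 for 231 (18.3%) and T2 for 357 (28.2%), whereas among the 11506 genes not called these shares were 53.1%, 45.9% and 51.3%. R1 lay above both lines for 215 of these genes and below both for 43. Among the 150 genes higher in 32, R1 was nearer to 32 for 75, S8 for 48 (32.0%) and T2 for 16 (10.7%). All shares use the same libraries of 16-6 and 32 that chose the genes, and they are given as a description. The study lists more reads for S8 and T2 than for the other lines, with a smaller uniquely mapped percentage. The part this had in the shares was not tested.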

How the data were processed

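RNA-seq libraries of poly(A)-enriched RNA were sequenced as paired ends by the authors for 5 lines. Reads were aligned by the authors with TopHat 2.0.4 (mm9) and only unique matches retained. They deposited FPKM values with confidence limits from Cufflinks (2.0.0 in the submitters' processing notes, another version in the methods). Strand handling is not given in the sources used here. The deposited FPKM are about 10000 times the usual scale and were divided by 12725.7, which sets the median library total to 1000000. Fragments were implied from the confidence limits. Labels and methods differ on the RNA source, embryos in the extract protocol and cell pellets in the methods.

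log2(FPKM + 1) of genes at 1 or more in at least 1 of the 4 libraries was fitted with limma 3.58.1 (R 4.3.3, eBayes with trend) on 8 libraries in 5 lines, with 3 residual degrees of freedom and no replicate block. Calls needed a Benjamini-Hochberg adjusted p below 0.05 over all genes tested and a log2 difference of 1 or more in size. Folds are ratios of mean FPKM, and log2 differences are on the log2(FPKM + 1) scale and understate the change of low genes. The fit was tested on simulated data. Tables used Python 3.11.15, pandas 2.3.3 and scipy 1.17.1.

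The comparison and the 33 gene lists were chosen with earlier results of these data known, so no p-value over the members of a list is given. Named were the 12 largest differences each way among called genes with a locus of at least 300 bases, at least 50 fragments in each library of the higher line and no overlap, the 3 largest each way among shorter genes, all members of the core, study, Dlk1-Dio3 and sex chromosome lists, and up to 4 called members each way of every other list. Other members and the promoters shown were chosen after their values were seen. Of the list symbols, 9 were found under an older symbol and 9 were not found. Promoters are RefSeq sequences (GRCm38.p6), placed in mm9 by exact match. Whether replicate numbers pair the libraries was checked by the correlation of replicate differences, which was 0.028 between 16-6 and 32 and -0.115 and 0.001 against R1, so the numbers were not taken as pairs. A member of the gene lists is counted but not reported here by name.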

Additional observations from a re-analysis of the deposited data

How the results depend on the processing

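Under 20 alternatives 0 of the 1415 calls changed direction, among the genes each alternative tested. Pseudocount 0.1 gave 1908 calls, 1634 higher in 16-6 and 274 higher in 32, and quantile normalization gave 255 with 1008 higher in 16-6. Requiring an FPKM of at least 1 in all 4 libraries, which removes genes faint in 32, left 888 calls, 769 of them higher in 16-6. Without the fold minimum 8251 genes were called, 3702 higher in 16-6 and 4549 higher in 32. Leaving out 1 library gave 1414 to 1447 calls, 1265 to 1281 higher in 16-6 and 148 to 181 higher in 32. With the replicate number as a block 1413 genes were called (1265 and 148), against 1415 in the same 6 libraries without the block. Counting the libraries of 16-6 as 1 sample gave 1435 calls. Of 105 named genes that were called, 93 were called under every alternative that tested them. The differences of Tsix and Ghrl, which were not called, turned in sign: Tsix to 0.01 under median centring, and Ghrl to 0.09 under median centring, to 0.06 with the libraries of 16-6 as 1 sample, and from -0.52 to 0.48 over the fits without a library. Genes under 20 implied fragments limit the low end, and without them 1363 genes were called. The causes of these shifts were not tested, beside the removal of genes by a filter.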

Other observations

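Families were also defined by symbol, after their values were seen. Of 24 tested collagen genes 18 were higher in 16-6 and 0 in 32, of 13 matrix metalloproteinases 8 and 0, of 3 Timp genes 3 and 0, of 15 Ccl and Cxcl chemokines 10 and 0, of 9 annexins 6 and 0, and of 26 interleukins and interleukin receptors 13 and 0. Ribosomal protein genes moved little: of 79 tested 0 were higher in 16-6 and 1 in 32, with a median log2 difference of -0.33, or -0.21 with each library centred. Of 323 tested Zfp genes 4 were higher in 16-6 and 1 in 32, and of 83 small nucleolar RNA genes 1 and 9. Of 9 claudin genes and 20 Dusp genes 0 were called in limma, with 4 and 13 at an unadjusted p under 0.05. Over all genes tested the latter count was 8748 of 12921. Of 208 Slc genes 18 were higher in 16-6 and 3 in 32, close to the shares of all tested genes (9.79% and 1.16%).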
